A study of Mus musculus with 2 samples.

Results

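The 48 genes described here encode the proteins that carry and end the signal of G protein-coupled receptors: 21 regulators of G protein signaling (RGS), 12 G alpha, 5 G beta and 10 G gamma subunits. They are 48 of the 32285 genes counted in a single-nucleus RNA-sequencing of the POA, the hypothalamic preoptic area. Members were taken by symbol (Rgs, Gnb or Gng followed by a number, and 12 listed Gna genes), with no threshold on a measured value. All 48 were found in the count tables and, by gene ID, in the GENCODE M21 annotation of the mouse genome build GRCm38.

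The study asked which POA neurons and molecules respond when ultrasound is aimed at this region to bring mice into a torpor-like state. The US+ library came from WT mice killed approximately 1 h after ultrasound, and the US- library from WT mice of the same age range (6 to 9 weeks) given a sham treatment. Each library pooled the homogenate of 4 mice, and nuclei that held DAPI and the neuronal antigen NeuN were sorted, approximately 25000 per group. Each group is thus 1 library with no replicate, no test was possible, and all US+ and US- values compare these 2 libraries, in which treatment, pool, sort and library cannot be told apart. Intervals in brackets are exact 95% intervals and cover counting error only.

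A receptor that binds its ligand makes a G alpha subunit exchange GDP for GTP and part from its beta-gamma partner, and both parts then act on enzymes and channels. Gs-type and Golf subunits raise cyclic AMP through adenylyl cyclase, Gi and Go subunits lower it, Gq subunits drive phospholipase C beta, and beta-gamma dimers open GIRK potassium channels. RGS proteins speed the hydrolysis of GTP by G alpha and so shorten the signal. Projection neurons of the striatum are known for a particular set of these parts, in which Golf (Gnal), Gng7 and adenylyl cyclase 5 couple dopamine and adenosine receptors to cyclic AMP, and Rgs9 acts with Gnb5 on Gi and Go.

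Levels were compared in 4 classes of nuclei set by UMIs (unique molecular identifiers, 1 per captured mRNA) of genes that are no members. Nuclei had 200 to 7500 genes, at most 5% mitochondrial UMIs and at least 2000 UMIs, which left 9912 US+ and 11040 US- nuclei of 12075 and 11725 barcodes. Rarb/Drd1 nuclei (125 US+, 465 US-) held at least 2 UMIs of Rarb and of Drd1, with Drd1 more than 3 times Drd2, and Rarb/Drd2 nuclei (128 US+, 584 US-) the converse. Other GABAergic nuclei (4335 US+, 4235 US-) held at most 1 Rarb UMI and at least 2 UMIs of Gad1, Gad2 and Slc32a1 together, more than 3 times Slc17a6. Slc17a6 nuclei (918 US+, 759 US-), which carry the vesicular glutamate transporter of hypothalamic excitatory neurons, held at most 1 Rarb UMI and more Slc17a6 than GABAergic UMIs. Levels are CPM, the UMIs of a gene summed over the nuclei of a class, per 1000000 UMIs of that sum, so that 1 UMI is 0.604 CPM in US+ and 0.179 CPM in US- Rarb/Drd1 nuclei and 0.0252 and 0.0249 CPM in other GABAergic nuclei.

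Both Rarb classes were scarcer in US+. They made up 1.26% and 1.29% of US+ nuclei, against 4.21% and 5.29% of US- nuclei (Rarb/Drd1 and Rarb/Drd2). Markers of striatal projection neurons were detected in both. Pde10a, a phosphodiesterase of these neurons, had 1715 CPM in US+ and 1619 CPM in US- Rarb/Drd1 nuclei and 1778 and 1993 CPM in Rarb/Drd2 nuclei, against 618.6 and 684.2 CPM in other GABAergic nuclei. Ppp1r1b, which encodes a phosphoprotein of dopamine signaling, had 31.4 and 30.9 CPM in Rarb/Drd1 and 18.6 and 40.6 CPM in Rarb/Drd2 nuclei, against 1.29 and 2.92 CPM in other GABAergic nuclei (US+ and US- in each). Of 5 markers of the Drd2 type, 4 were past 1.5-fold lower and 1 higher in US+ Rarb/Drd2 nuclei. Adora2a, an adenosine receptor gene of such neurons, was at 71.7 CPM in US+ against 109.9 CPM in US-, and Penk, the enkephalin precursor and the one higher, at 440.6 and 278.7 CPM, so that the 5 summed to 538.3 and 437.1 CPM. In Rarb/Drd1 nuclei the same 5 summed to 105.7 and 41.5 CPM, again mostly Penk. The 5 Drd1-type markers summed to 210.8 CPM in US+ and 164.2 CPM in US- Rarb/Drd1 nuclei and 21.5 and 45.5 CPM in Rarb/Drd2 nuclei. The 4 glutamatergic hypothalamic markers summed to 24.2 and 11.4 CPM in other GABAergic nuclei, with 3 past 1.5-fold higher. In Slc17a6 nuclei they summed to 211.2 and 227 CPM, with a ratio of 1.53 for Sim1 and 0.513 for Tcf7l2. Of the genes that set the gates, Drd2 was at 258.1 and 386.4 CPM and Slc32a1 at 36.7 and 18.1 CPM in Rarb/Drd2 nuclei, and Slc17a6 at 12.4 and 5.15 CPM there and 10.3 and 3.41 CPM in Rarb/Drd1 nuclei (US+ and US- in each). The 5 oligodendrocyte markers summed to 84.2 CPM in US+ and 33.7 CPM in US- Rarb/Drd2 nuclei (Mag at 0 in US-), 81.9 and 42.7 CPM in other GABAergic nuclei, 76.1 and 56.8 CPM in Slc17a6 nuclei, and 42.9 and 43.6 CPM in Rarb/Drd1 nuclei. The 4 endothelial markers summed to 27.8 CPM in US+ and 13.99 CPM in US- Rarb/Drd1 nuclei, 8.47 and 10.6 CPM in Rarb/Drd2, 15.03 and 11.05 CPM in other GABAergic, and 16.9 and 12.2 CPM in Slc17a6 nuclei. The 5 astrocyte markers, mostly Slc4a4, summed to 366.7 CPM in US+ and 436.3 CPM in US- Rarb/Drd1 nuclei and 321.4 and 431 CPM in Rarb/Drd2 nuclei. They summed to 33.1 and 34.1 CPM in other GABAergic and 49.1 and 26.5 CPM in Slc17a6 nuclei. The 5 microglial markers summed to 110.5 and 117.3 CPM in Rarb/Drd1, 97.15 and 95.65 CPM in Rarb/Drd2, 153 and 144.5 CPM in other GABAergic, and 154.2 and 156.8 CPM in Slc17a6 nuclei. The part of these markers in the results was not tested. Median UMIs per nucleus were 8027 to 12286 over the US+ and 8012 to 10911 over the US- classes. Of 23800 barcodes, 29 were in both libraries.

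**Figure D1:**
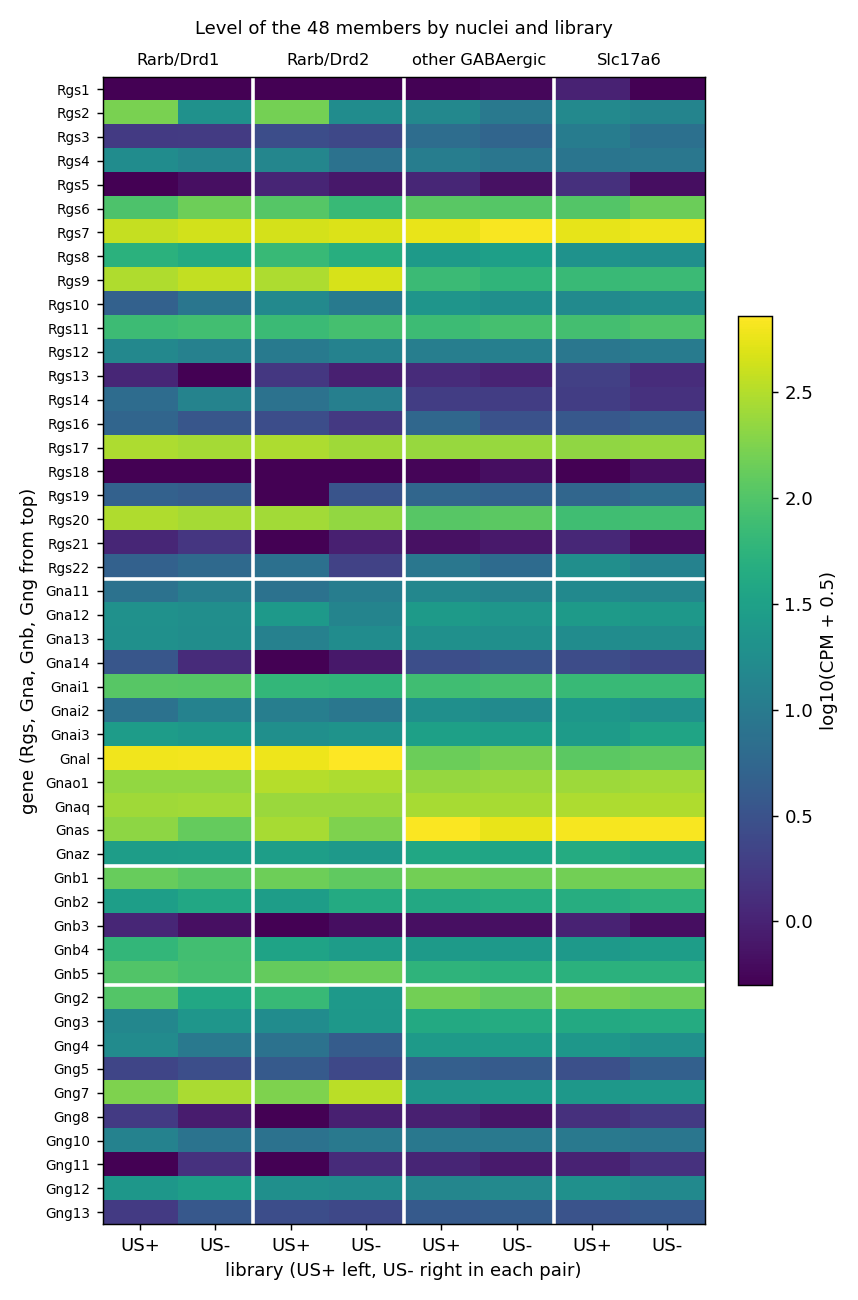
Level of each of the 48 members (rows) as log10 of CPM with 0.5 CPM added, in the 4 classes of nuclei with the US+ library left of the US- library. Gnal, Gng7, Rgs9 and Rgs20 are brighter in both Rarb classes than in the other 2 classes, Gnas is darker, and Rgs2 is bright in the US+ columns of the Rarb classes alone.

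Whether a member could be compared depended on its counts. A member was compared between libraries in a class where both sums together held at least 50 UMIs, which 31 members reached in all 4 classes, 2 (Rgs14 and Gng4) in 3, 4 (Rgs3, Rgs16, Rgs19 and Rgs22) in 2, and 4 (Rgs13, Gna14, Gng5 and Gng13) in 1. The remaining 7 (Rgs1, Rgs5, Rgs18, Rgs21, Gnb3, Gng8 and Gng11) reached it in none and were at 1.21 CPM or below in every class and library. Those that passed did so partly by their own level, so counts below are shares of the members compared, not of all 48.

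A member was counted as past the fold when the log2 ratio of US+ to US- CPM, with 0.5 CPM added to both, was beyond 1.5-fold. In Rarb/Drd1 nuclei this held for 11 of 33 members, 5 higher (Rgs2, Gnas, Gng2, Gng4 and Gng10) and 6 lower (Rgs6, Rgs10, Rgs14, Gnai2, Gng3 and Gng7), against 17.1% of all genes compared (5.66% higher, 11.4% lower). By total UMIs 607 genes were higher and 1225 lower there, against 778 and 967 with median-of-ratios scaling, which left 5 members higher and 5 lower. In Rarb/Drd2 nuclei it held for 10 of 32, 7 higher (Rgs2, Rgs4, Rgs6, Rgs10, Gna12, Gnas and Gng2) and 3 lower (Rgs9, Gnb2 and Gng7), against 15.6% of all genes (6.04% higher, 9.52% lower). In other GABAergic nuclei it held for 2 of 41, Rgs2 and Rgs16, both higher, against 4.28% of all genes (2.95% higher). In Slc17a6 nuclei it held for 0 of 36, against 4.09% of all genes (2.52% higher). The median log2 ratio of the members was 0.02, 0.10, 0.07 and -0.04 in these 4 classes in turn, and that of all genes -0.08, -0.05, 0.03 and -0.01. The count in the Rarb classes stood above the share of all genes in some settings and not in others: with no nucleus over 5000 genes it was 5 of 30 members against 21.6% of all genes in Rarb/Drd1 and 9 of 32 against 20.9% in Rarb/Drd2 nuclei, and with looser gates 5 of 36 against 13.3% and 10 of 34 against 13.2%. In all 9912 US+ and 11040 US- nuclei together, 8 of 45 members compared were past the fold, 4 higher (Rgs2, Rgs5, Rgs16 and Rgs22) and 4 lower (Rgs9, Rgs14, Gnal and Gng7), against 5.36% of all genes (3.46% higher, 1.90% lower). The 4 lower genes all had their highest levels in the Rarb classes, which held a smaller share of the US+ library. Gnal had a ratio of 0.625 (0.614 to 0.637) over all nuclei and between 0.829 and 0.979 within each class. The other 3 were also past the fold lower within a Rarb class: Gng7 in Rarb/Drd1 (0.624) and Rarb/Drd2 (0.513), Rgs9 in Rarb/Drd2 (0.629) and Rgs14 in Rarb/Drd1 nuclei (0.488). The part of the class shares in the ratios over all nuclei was not tested, and values are given by class from here. By family, 5 of 6 Gng, 4 of 12 Rgs, 2 of 11 Gna and 0 of 4 Gnb genes compared were past the fold in Rarb/Drd1 nuclei, and 2 of 5, 5 of 12, 2 of 11 and 1 of 4 in Rarb/Drd2 nuclei.

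**Figure D2:**
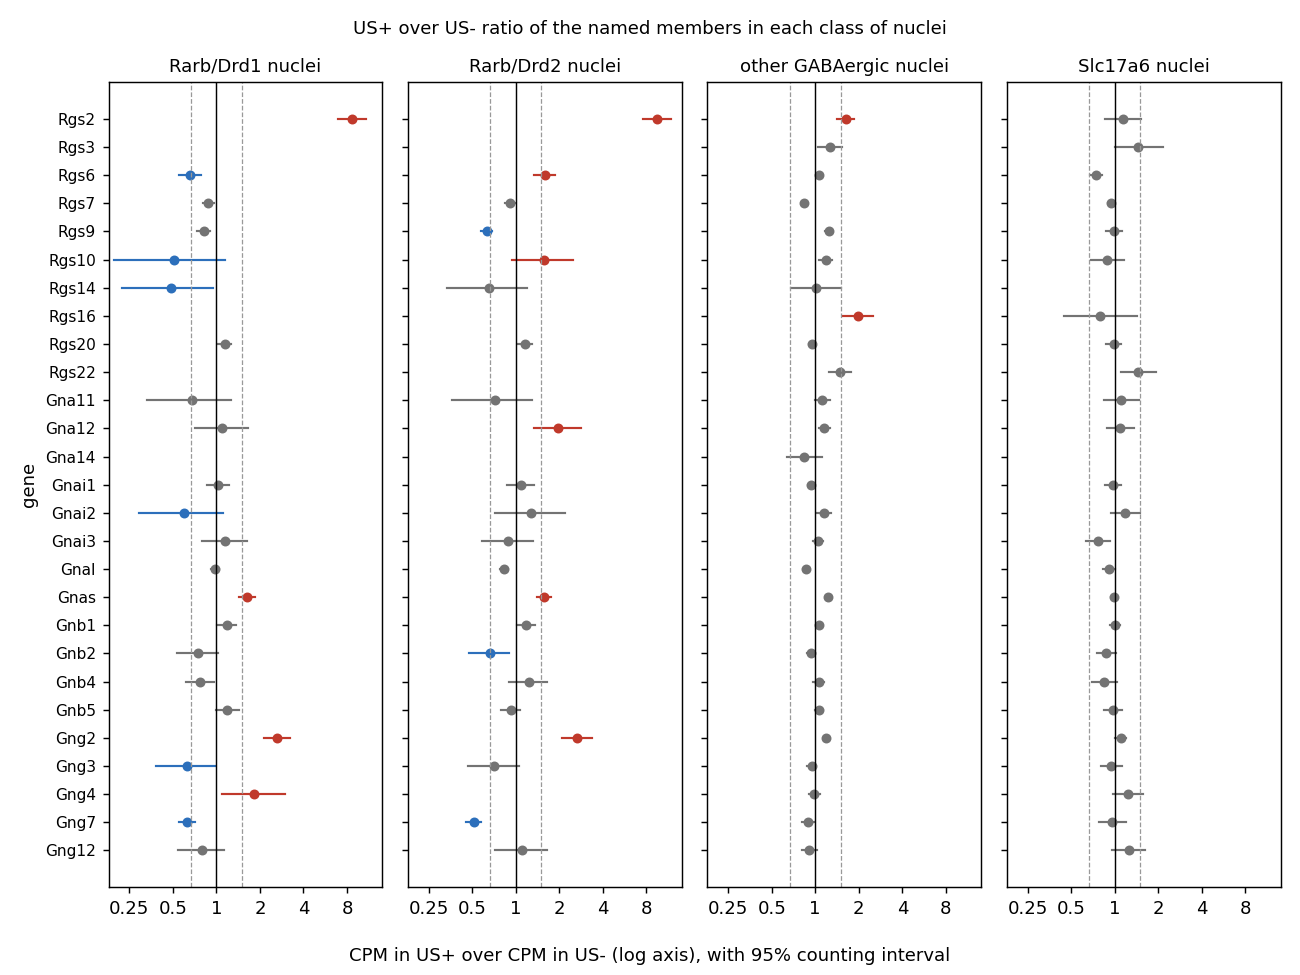
Ratio of CPM in US+ over CPM in US- (log axis) for the named members in each class, with 95% counting intervals. Dots are drawn where both sums held at least 50 UMIs, red where past 1.5-fold higher, blue where past 1.5-fold lower and grey otherwise, and dashed lines mark 1.5-fold. Rgs2 lies far right of every other member in both Rarb classes, at 8.62 and 9.42, and all Slc17a6 dots are grey.

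Rgs2 differed most. Its protein acts chiefly on Gq, and in many cells its mRNA is known to be induced within an hour of stimulation. Rgs2 stood at 168.5 CPM in US+ (279 UMIs) against 19.6 CPM in US- (109 UMIs) Rarb/Drd1 nuclei, a ratio of 8.62 (6.88 to 10.9). In Rarb/Drd2 nuclei it was at 155.3 CPM in US+ (275 UMIs) against 16.5 CPM in US- (112 UMIs), a ratio of 9.42 (7.54 to 11.9). The ratio was 1.62 (1.42 to 1.85) in other GABAergic nuclei, at 14.6 CPM in US+ against 9.01 CPM in US-, and 1.14 (0.854 to 1.52) in Slc17a6 nuclei, at 14.7 and 12.9 CPM. The intervals of both Rarb classes lie above those of the other 2 classes.

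The share of nuclei with at least 1 Rgs2 UMI differed as well. At least 1 Rgs2 UMI was found in 63.2% of US+ (54.1% to 71.7%) and 17.6% of US- (14.3% to 21.4%) Rarb/Drd1 nuclei, and in 68.0% of US+ and 15.9% of US- Rarb/Drd2 nuclei. In Slc17a6 nuclei the shares were 11.2% in US+ and 9.75% in US-, at a median of 8027 and 8012 UMIs per nucleus against 11118 and 10911 in Rarb/Drd1 nuclei. None of the classes is known to lack Rgs2, so the share that free RNA gives was not measured. Brought to an equal depth of 2000 UMIs per nucleus, the shares were 26.8% and 3.74% in Rarb/Drd1, 25.8% and 3.55% in Rarb/Drd2, 2.98% and 1.81% in other GABAergic and 3.01% and 2.38% in Slc17a6 nuclei (US+ and US- in each).

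Genes known to be induced by neuronal activity moved with Rgs2. Of a list of 15 such genes, 12 of 12 compared were past 1.5-fold higher in US+ in each Rarb class, 10 of 15 in other GABAergic nuclei and 1 of 9 in Slc17a6 nuclei. Their summed level was 929.7 CPM in US+ and 69.6 CPM in US- Rarb/Drd1 nuclei, 612.8 and 76.7 CPM in Rarb/Drd2, 126.5 and 66 CPM in other GABAergic, and 82.4 and 68.1 CPM in Slc17a6 nuclei. Fosb, an AP-1 subunit, was at 74.9 CPM in US+ against 1.08 CPM in US- Rarb/Drd1 nuclei, and Npas4, a transcription factor induced by depolarization, at 214.5 and 5.02 CPM. At least 3 UMIs of the list were found in 84% of US+ (76.4% to 89.9%) and 8.17% of US- (5.85% to 11.04%) Rarb/Drd1 nuclei, in 77.3% and 6.68% of Rarb/Drd2, 10.3% and 5.01% of other GABAergic, and 5.77% and 4.48% of Slc17a6 nuclei.

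Within the Rarb classes the high Rgs2 level was in the nuclei that held these UMIs. Rarb/Drd1 nuclei with at least 3 of them had 188.5 CPM of Rgs2 in US+ (105 nuclei) and 53.5 CPM in US- (38 nuclei), and Rarb/Drd2 nuclei 192 CPM in US+ (99 nuclei) and 25.8 CPM in US- (39 nuclei). Rarb/Drd1 nuclei with none had 0 UMIs of Rgs2 in US+ (9 nuclei, where 3 UMIs, the limit used for a count of 0, would be 29.4 CPM) and 14.3 CPM in US- (292 nuclei), and Rarb/Drd2 nuclei with none had 16.2 CPM in US+ (2 UMIs in 9 nuclei) and 15.3 CPM in US- (336 nuclei). With all nuclei of 3 or more activity UMIs left out, a setting chosen after the data were seen, the Rgs2 ratio was 0.666 (0.0793 to 2.48) over 20 US+ and 427 US- Rarb/Drd1 nuclei, on 2 UMIs in US+ and 82 in US-, and 1.35 (0.567 to 2.77) over 29 US+ and 545 US- Rarb/Drd2 nuclei, on 8 and 97 UMIs. Few US+ Rarb nuclei remained, and their intervals hold 1. In other GABAergic nuclei the ratio was 1.43 (1.24 to 1.65) in this setting.

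**Figure D3:**
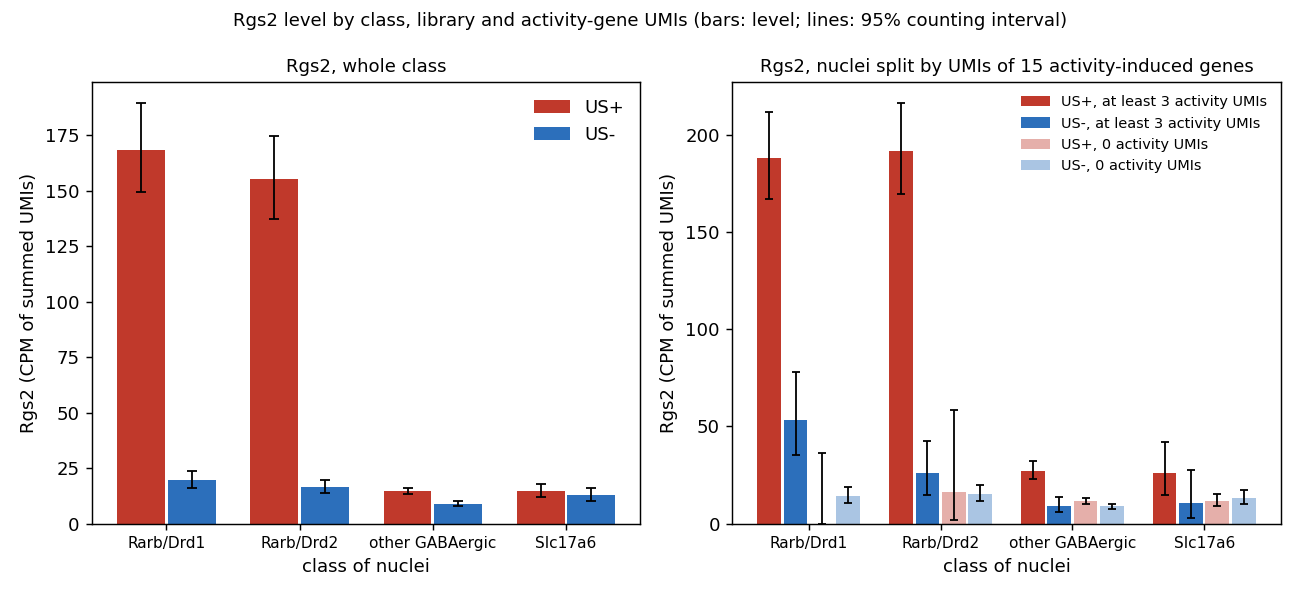
Rgs2 level in CPM (bars) with 95% counting intervals (lines), by class of nuclei. Left, the whole class in US+ (red) and US- (blue), with 168.5 and 19.6 CPM in Rarb/Drd1 nuclei. Right, nuclei with at least 3 UMIs (full colour) or 0 UMIs (pale) of 15 activity-induced genes, where the high bars are those of US+ Rarb nuclei with at least 3.

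The stretch before the start of each gene is shown for 3 of the 4 members past 1.5-fold between libraries the same way in both Rarb classes (the other is Gnas, a locus of several starts): Rgs2 (chromosome 1, 143999338 to 144004161), Gng2 (chromosome 14, 19872559 to 19977627) and Gng7 (chromosome 10, 80948624 to 81014945), all on the minus strand of GRCm38. Each run is the 250 bases before the RefSeq start of the gene on GRCm38.p6, 5′ to 3′ on the strand of the gene, with every TGACG or its complement CGTCA, the half-site of the cyclic AMP response element, in capitals.
Rgs2 (chr1:144004150-144004399, minus): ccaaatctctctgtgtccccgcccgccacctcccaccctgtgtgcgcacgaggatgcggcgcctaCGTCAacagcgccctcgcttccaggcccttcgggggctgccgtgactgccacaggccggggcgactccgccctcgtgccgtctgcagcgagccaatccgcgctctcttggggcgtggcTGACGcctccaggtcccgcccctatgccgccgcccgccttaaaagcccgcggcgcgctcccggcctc
Gng2 (chr14:19976694-19976943, minus): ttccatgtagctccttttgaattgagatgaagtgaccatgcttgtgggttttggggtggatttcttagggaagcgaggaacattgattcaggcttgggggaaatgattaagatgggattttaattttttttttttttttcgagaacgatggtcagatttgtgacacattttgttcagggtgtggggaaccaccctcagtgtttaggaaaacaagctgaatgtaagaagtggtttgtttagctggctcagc
Gng7 (chr10:81014926-81015175, minus): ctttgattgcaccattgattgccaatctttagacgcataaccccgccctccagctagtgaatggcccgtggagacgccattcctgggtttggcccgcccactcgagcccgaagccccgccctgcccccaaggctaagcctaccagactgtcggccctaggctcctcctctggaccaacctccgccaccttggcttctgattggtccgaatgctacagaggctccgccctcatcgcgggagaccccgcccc
The Rgs2 window holds 2 half-sites and the other 2 windows none. Of all 32851 RefSeq windows of this length, 17.8% hold at least 1 on either strand, and of the 36 members with such a window 5 do (Rgs2, Rgs4, Rgs8, Rgs21 and Gnb1). Each member was given 1 window, that nearest its GENCODE start, while the 32851 windows were not cut to 1 per gene. The full site TGACGTCA is in 1.55% of all windows and in 0 of the 36, TGACTCA (AP-1, either strand) in 4.46% and in 1 (Rgs17), and GCGTGGGCG (Egr, either strand) in 0.536% and in 0. A match is a run of letters and was not tested as a binding site. The Gng2 window lies inside the span that GENCODE gives the gene, which has starts further out.

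Gng2 and Gng7, both G gamma subunits, differed in opposite directions in the Rarb classes. Gng2 was at 101.5 CPM in US+ (168 UMIs) against 38.9 CPM in US- (217 UMIs) Rarb/Drd1 nuclei, a ratio of 2.61 (2.12 to 3.20), and at 66.1 and 24.9 CPM in Rarb/Drd2 nuclei, a ratio of 2.66 (2.08 to 3.38). Its ratio was 1.19 (1.15 to 1.24) in other GABAergic nuclei, at 151.5 and 127 CPM, and 1.10 (1.01 to 1.196) in Slc17a6 nuclei, at 159.9 and 145.4 CPM. Both Rarb classes stayed below the other 2 classes in each library.

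Gng7, the G gamma partner of Golf in the striatum, was at 176.4 CPM in US+ (292 UMIs) against 282.8 CPM in US- (1576 UMIs) Rarb/Drd1 nuclei, a ratio of 0.624 (0.549 to 0.707). In Rarb/Drd2 nuclei it was at 174 CPM in US+ against 339.3 CPM in US-, a ratio of 0.513 (0.454 to 0.578). In other GABAergic nuclei (22.5 CPM in US+, 25.2 CPM in US-) and Slc17a6 nuclei (23.7 and 24.5 CPM) its ratio was 0.890 and 0.966.

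Both genes were also compared where activity UMIs were few, and the part of activity in their ratios was not tested. In US+ and US- Rarb/Drd1 nuclei, Gng7 stood at 181 and 257.8 CPM where at least 3 activity UMIs were found, and at 107.8 (11 UMIs in 9 nuclei) and 296.4 CPM where none was. Gng2 stood at 94.6 and 21.8 CPM where at least 3 were found. Where none was, it stood at 58.8 CPM (21.6 to 128, 6 UMIs) and 32.8 CPM (26.9 to 39.6), and these intervals overlap. Leaving out nuclei of 3 or more activity UMIs kept only 20 US+ and 427 US- Rarb/Drd1 and 29 US+ and 545 US- Rarb/Drd2 nuclei. Gng7 then had a ratio of 0.491 (0.320 to 0.722) in Rarb/Drd1 and 0.382 (0.282 to 0.507) in Rarb/Drd2 nuclei, and Gng2 of 3.84 (2.51 to 5.69) and 4.84 (3.42 to 6.74). In the same nuclei Gnal had ratios of 0.727 (0.580 to 0.900) and 0.588 (0.4999 to 0.688) and Rgs9 of 0.713 (0.524 to 0.9496) and 0.499 (0.399 to 0.617). The ratios of these 4 genes were at least as far from 1 there as in the whole classes. Gnas had 1.45 (0.988 to 2.06) and 2.24 (1.87 to 2.66) there, against 1.63 and 1.56 in the whole classes. The mix of the few US+ nuclei that remained was not tested. The Gng7 ratio of Rarb/Drd1 nuclei was 1.01 over the 30 US+ and 84 US- nuclei with under 3 glial or vascular UMIs. Most UMIs of these lists in Rarb/Drd1 nuclei were of Slc4a4, at 358.8 CPM in US+ against 431.9 CPM in US-, and of P2ry12, at 90.6 and 102.8 CPM. In other GABAergic nuclei Slc4a4 was at 27.9 and 30.2 CPM and P2ry12 at 130.5 and 125 CPM. The other astrocyte markers (Aqp4, Gja1, Aldh1l1 and Gfap) were at 3.625 CPM or below in Rarb/Drd1 nuclei. The setting thus largely follows Slc4a4 and P2ry12 there, and their part in this value was not tested.

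Among the other G gamma genes, Gng4 was at 16.3 CPM in US+ against 8.97 CPM in US- Rarb/Drd1 nuclei, a ratio of 1.82 (1.09 to 2.96) on 27 and 50 UMIs, and at 7.34 and 3.68 CPM in Rarb/Drd2 nuclei, where its 38 UMIs were too few to be compared. Gng3, at 13.9 CPM in US+ against 22.3 CPM in US- Rarb/Drd1 nuclei, had a ratio of 0.625 (0.382 to 0.980). Gng12 had the highest ratio among Gng genes in Slc17a6 nuclei, 1.25 (0.963 to 1.62), an interval that holds 1.

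Of 11 G alpha genes compared in each Rarb class, 2 were past the fold in each. That is 18.2%, near the 17.1% (Rarb/Drd1) and 15.6% (Rarb/Drd2) of all genes. In other GABAergic nuclei 0 of 12 were past it, against 4.28% of all genes, and in Slc17a6 nuclei 0 of 11, against 4.09%. Gnaq, of the Gq family, was at 258.5 CPM in US+ against 263.9 CPM in US- Rarb/Drd1 nuclei and at 242.3 and 242.2 CPM in Rarb/Drd2 nuclei, and Gnao1, the G alpha o gene, at 224.1 and 221.2 CPM and at 317.4 and 298.1 CPM. These intervals bound the difference from counting alone: 0.878 to 1.09 and 0.897 to 1.11 for Gnaq, and 0.900 to 1.14 and 0.968 to 1.17 for Gnao1. Both genes are named here after their values were seen. Gnal, the alpha subunit of Golf, had a ratio of 0.979 (0.913 to 1.05) in Rarb/Drd1 nuclei, at 622.8 CPM in US+ against 636 CPM in US-, and of 0.829 (0.775 to 0.886) in Rarb/Drd2 nuclei, at 598.1 and 722 CPM.

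Gnas, the alpha subunit of Gs, was past the fold in both Rarb classes. It was at 210.8 CPM in US+ against 129.5 CPM in US- Rarb/Drd1 nuclei, a ratio of 1.63 (1.43 to 1.85), and at 278.5 and 178.1 CPM in Rarb/Drd2 nuclei, a ratio of 1.56 (1.41 to 1.74). In other GABAergic nuclei it was at 693.8 and 562.8 CPM, a ratio of 1.23 (1.21 to 1.26), and in Slc17a6 nuclei at 660.7 and 667.7 CPM, a ratio of 0.990 (0.951 to 1.03). Its level in the Rarb classes depended on which nuclei were counted. In Rarb/Drd1 nuclei with under 3 glial or vascular UMIs (30 US+ and 84 US- nuclei) the ratio was 0.986, in a setting that largely follows Slc4a4 and P2ry12. It was 4.12 in Rarb/Drd1 nuclei under the stricter gates (13 US+ and 57 US- nuclei). In Rarb/Drd2 nuclei of at most 5000 genes (93 US+ and 507 US- nuclei) it was 1.05. Gnas (chromosome 2, 174284320 to 174346744, plus strand) is an imprinted locus with several transcripts from separate starts, which a gene count joins.

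Gna12, of the G12 family, was at 25.4 CPM in US+ against 13.0 CPM in US- Rarb/Drd2 nuclei, a ratio of 1.96 (1.34 to 2.84), and at 19.3 and 17.6 CPM in Rarb/Drd1 nuclei. Gnai2, a Gi subunit, was at 7.25 CPM in US+ (12 UMIs) against 12.2 CPM in US- (68 UMIs) Rarb/Drd1 nuclei, and its ratio of 0.594 had an interval (0.293 to 1.11) that holds 1. Gna11, of the Gq family, had the lowest Gna ratio in Rarb/Drd2 nuclei, 0.713 (0.362 to 1.299), and Gnai3, a Gi subunit, the lowest in Slc17a6 nuclei, 0.767 (0.634 to 0.929). Gnb2 was the G beta gene with the lowest ratio in both Rarb classes, at 0.752 (0.538 to 1.03) in Rarb/Drd1 and 0.660 (0.478 to 0.893) in Rarb/Drd2 nuclei, where it stood at 28.2 CPM in US+ against 42.8 CPM in US-. Gnb1 had the highest Gnb ratio in Slc17a6 nuclei, 1.00 (0.923 to 1.09).

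The remaining RGS genes split. Rgs9 was past the fold only in Rarb/Drd2 nuclei, with 293.1 CPM in US+ (519 UMIs) against 466.2 CPM in US- (3168 UMIs), a ratio of 0.629 (0.572 to 0.690), against 303.3 and 370.9 CPM and a ratio of 0.818 (0.740 to 0.902) in Rarb/Drd1 nuclei. In other GABAergic nuclei its ratio was 1.24 (1.17 to 1.31), at 71.3 CPM in US+ against 57.7 CPM in US-. Rgs14, which binds Gi and small GTPases, was at 6.04 CPM in US+ (10 UMIs) against 12.4 CPM in US- (69 UMIs) Rarb/Drd1 nuclei, a ratio of 0.488 (0.224 to 0.952), and at 7.34 and 11.2 CPM in Rarb/Drd2 nuclei, where the interval of 0.657 (0.334 to 1.19) holds 1.

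Rgs6 and Rgs10 were past the fold in opposite directions in the Rarb classes, and the direction of both in Rarb/Drd2 nuclei depended on which nuclei were counted. Rgs6, which like Rgs9 pairs with Gnb5, was at 94.2 CPM in US+ against 143.2 CPM in US- Rarb/Drd1 nuclei (ratio 0.658, 0.551 to 0.782) and at 105.6 and 66.8 CPM in Rarb/Drd2 nuclei (ratio 1.58, 1.33 to 1.88). In Rarb/Drd2 nuclei its ratio was 0.789 at no more than 5000 genes per nucleus, 0.865 under the stricter gates and 5.59 without nuclei of 3 or more glial or vascular UMIs. Rgs10 was at 4.23 CPM in US+ (7 UMIs) against 8.25 CPM in US- (46 UMIs) Rarb/Drd1 nuclei and at 14.7 and 9.42 CPM in Rarb/Drd2 nuclei, with ratios of 0.512 (0.195 to 1.14) and 1.56 (0.949 to 2.50) whose intervals hold 1, and the second was 0.997 at no more than 5000 genes.

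Outside the Rarb classes, Rgs16 was the RGS gene with the highest ratio in other GABAergic nuclei. It stood at 5.15 CPM in US+ (204 UMIs) against 2.62 CPM in US- (105 UMIs), a ratio of 1.96 (1.55 to 2.51), and at 3.24 and 4.06 CPM in Slc17a6 nuclei, where its ratio was 0.798 (0.447 to 1.42). Rgs16 acts on Gi and Gq, and is known for its daily rhythm in the suprachiasmatic nucleus next to the POA. Rgs22 had the highest RGS ratio in Slc17a6 nuclei, 1.46 (1.10 to 1.95), at 17.6 CPM in US+ against 12.03 CPM in US-, and 1.48 (1.25 to 1.76) in other GABAergic nuclei, neither past the fold. Rgs7, the neuronal partner of Gnb5 and Gpr158, had the lowest RGS ratio in other GABAergic nuclei, 0.840 (0.825 to 0.855), on 22667 UMIs in US+ and 27279 in US-. The standardized mix of marker strata, in which both libraries hold the same shares of nuclei with Meis2, Esr1, Lhx6 and Foxp2, left Rgs2 and Rgs16 past the fold in other GABAergic nuclei.

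The classes were next set against each other, counting a member when it was past 2-fold over other GABAergic nuclei the same way in both libraries. In Rarb/Drd1 nuclei 10 of 41 members passed, 7 higher and 3 lower, against 10.8% of all genes (2.87% higher, 7.96% lower). In Rarb/Drd2 nuclei 10 of 41 passed, 5 higher and 5 lower, against 10.9% of all genes (2.81% higher, 8.12% lower). In Slc17a6 nuclei 0 of 41 passed, against 1.63% of all genes (0.845% higher, 0.790% lower). All of these comparisons share the sums of other GABAergic nuclei. The median log2 ratio of all genes was -0.33 and -0.35 in the Rarb classes, and TMM scaling moved it to -0.12 in both. Scaling also set the split of all genes past 2-fold: 521 were higher and 1445 lower in Rarb/Drd1 nuclei by total UMIs, against 717 and 1011 by TMM, and 510 and 1477 in Rarb/Drd2 nuclei, against 711 and 912. The members then split into 8 higher and 2 lower in Rarb/Drd1 and 7 higher and 3 lower in Rarb/Drd2 nuclei. Among the named members no direction turned under TMM or median-of-ratios scaling.

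Gng7, Rgs9, Gnal and Rgs14 were higher in both Rarb classes. Gng7 was 7.86-fold (6.86 to 8.98) in US+ and 11.2-fold (10.4 to 12.1) in US- in Rarb/Drd1 over other GABAergic nuclei, and 7.75-fold (6.79 to 8.83) and 13.5-fold (12.5 to 14.5) in Rarb/Drd2 nuclei. Rgs9 was 4.25-fold and 6.43-fold in Rarb/Drd1 and 4.11-fold and 8.08-fold in Rarb/Drd2 nuclei (US+ and US- in each). Gnal was 4.41-fold and 3.86-fold in Rarb/Drd1 and 4.24-fold and 4.39-fold in Rarb/Drd2 nuclei, so its excess was close in both libraries. Rgs14 was 4.35-fold (1.98 to 8.62) and 9.02-fold (6.24 to 13.1) in Rarb/Drd1 nuclei, on 10 UMIs in US+ and 69 in US-. Adcy5, the cyclase that Golf drives in the striatum, was 4.59-fold and 5.58-fold in Rarb/Drd1 and 3.74-fold and 5.80-fold in Rarb/Drd2 nuclei.

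**Figure D4:**
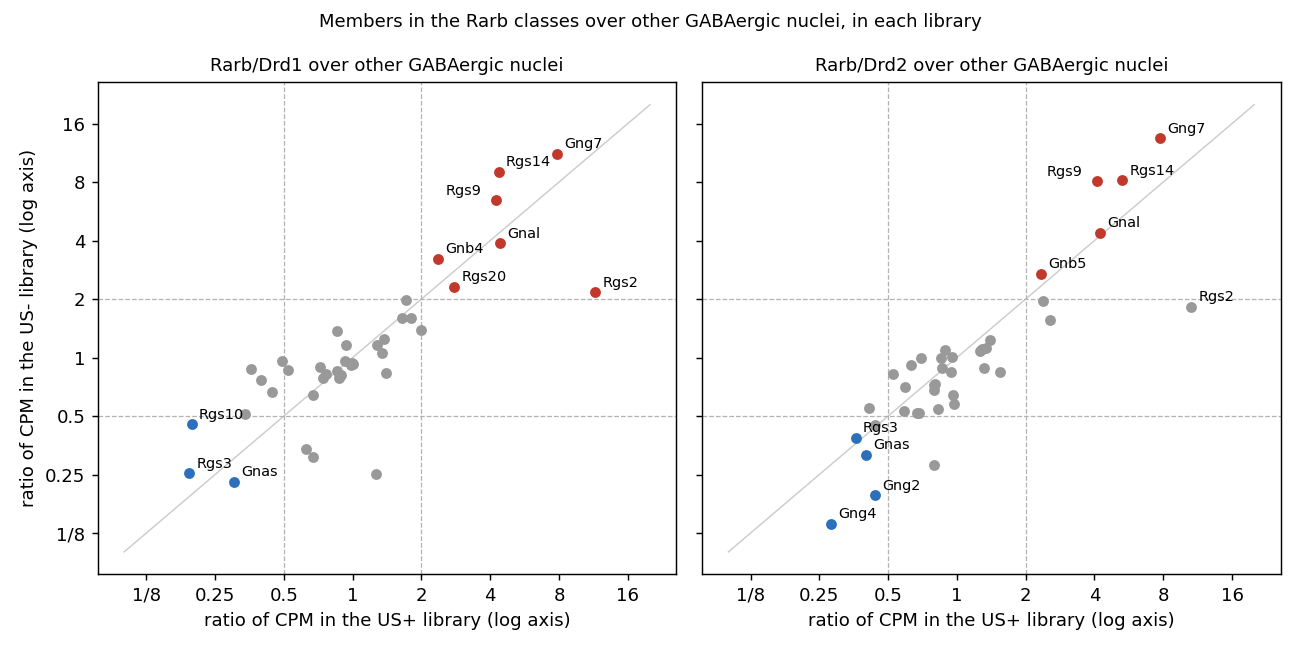
Ratio of each member in Rarb/Drd1 (left) and Rarb/Drd2 (right) over other GABAergic nuclei, in the US+ library (x) and the US- library (y), both on log axes. Red and blue dots are past 2-fold (dashed lines) higher or lower in both libraries, the diagonal marks equal ratios, and members at 0 UMIs in a sum of the pair (Gna14, Rgs13 and Rgs19) are not drawn in that panel. Gng7, Rgs9 and Rgs14 lie above the diagonal and Rgs2 far right of it.

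Other members passed in 1 Rarb class. Rgs20, which acts on Gz and Gi, was 2.78-fold and 2.31-fold, and Gnb4 2.35-fold and 3.22-fold, in Rarb/Drd1 over other GABAergic nuclei (US+ and US-). Gnb5, the beta subunit that stabilizes Rgs6, Rgs7, Rgs9 and Rgs11, was 2.34-fold and 2.71-fold in Rarb/Drd2 nuclei, at 129.9 CPM in US+ against 141.1 CPM in US-, against 55.6 and 52.2 CPM in other GABAergic nuclei. In Rarb/Drd1 nuclei Gnb5 was at 99.7 CPM in US+ against 83.6 CPM in US-. Rgs2 was past 2-fold in Rarb/Drd1 nuclei, at 11.5-fold (9.97 to 13.3) in US+ and 2.17-fold (1.74 to 2.70) in US-. The US- value is the one measured in sham mice. Without nuclei of 3 or more activity UMIs, Rgs2 was at 16.2 CPM in US- Rarb/Drd1 against 8.99 CPM in US- other GABAergic nuclei. In US+ it was at 10.8 CPM, on 2 UMIs in 20 nuclei, against 12.85 CPM. The geometric mean of these unlike ratios was 1.23-fold.

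Gnas and Rgs3 were lower in both Rarb classes. Gnas was 0.304-fold (0.273 to 0.338) in US+ and 0.230-fold (0.213 to 0.248) in US- in Rarb/Drd1 over other GABAergic nuclei, and 0.401-fold and 0.316-fold in Rarb/Drd2 nuclei. At least 1 Gnas UMI was found in 66.4% of US+ and 46.0% of US- Rarb/Drd1 nuclei, against 94.7% and 92.6% of other GABAergic nuclei. Rgs3, an RGS protein of Gi and Gq, was at 1.21 CPM in US+ (2 UMIs) against 1.26 CPM in US- (7 UMIs) Rarb/Drd1 nuclei, against 6.26 and 4.94 CPM in other GABAergic nuclei. Rgs10 was lower in Rarb/Drd1 nuclei, at 0.197-fold and 0.455-fold. Gng2 was 0.436-fold in US+ and 0.196-fold in US- and Gng4 0.283-fold and 0.140-fold in Rarb/Drd2 over other GABAergic nuclei. Gna14, of the Gq family, had 0 UMIs in US+ Rarb/Drd2 nuclei, which allows up to 1.69 CPM (3 UMIs), and 2 UMIs in US-, against 2.40 and 2.84 CPM in other GABAergic nuclei. At 1.69 CPM it would not be past 2-fold lower in US+, so its place among the members counted as lower rests on a count of 0. Of the effector genes, Adcy8, a cyclase driven by calcium, was 0.267-fold in US+ and 0.199-fold in US- in Rarb/Drd1 over other GABAergic nuclei, and Plcb4, a target of Gq, 0.274-fold and 0.195-fold.

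The Rarb classes were also set against each other. Of 34 members compared, 4 were past 1.5-fold in Rarb/Drd1 over Rarb/Drd2 nuclei in both libraries, all higher, against 3.20% of all genes (1.71% higher). Gnb4 was 1.82-fold (1.31 to 2.55) in US+ and 2.89-fold (2.43 to 3.45) in US-, Gnai1, a Gi subunit, 1.73-fold (1.36 to 2.22) and 1.83-fold (1.61 to 2.09), Gng2 1.54-fold (1.21 to 1.96) and 1.57-fold (1.27 to 1.93), and Gng4 2.22-fold (1.11 to 4.69) and 2.44-fold (1.48 to 4.11). Gnai1 stood at 107.5 CPM in US+ against 104.8 CPM in US- Rarb/Drd1 nuclei, against 62.1 and 57.2 CPM in Rarb/Drd2 nuclei.

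Some members past 2-fold between classes were also past 1.5-fold between libraries, and the same sums enter both comparisons. Gng7 and Rgs9, high in the Rarb classes, were lower in US+ than in US- Rarb/Drd2 nuclei, while Gnas and Gng2, low there, were higher. Gnal and Gnb5, high there too, were not past the fold between libraries. In the same nuclei Drd2, Adora2a and Ppp1r1b were lower, and Penk, Slc32a1, Slc17a6 and the oligodendrocyte markers higher, in US+ than in US-, with the values given above, and their part in the result was not tested. In nuclei with at least 10 Rarb UMIs and no Slc17a6 UMI, a gate chosen after the data were seen (81 US+ and 376 US- Rarb/Drd2 nuclei), the ratios were 0.552 for Gng7, 0.657 for Rgs9, 3.29 for Gng2 and 1.19 for Gnas. In Rarb/Drd1 nuclei under the same gate (70 US+, 313 US-) they were 0.635 for Gng7, 2.38 for Gng2 and 1.66 for Gnas. The Rgs2 ratios were then 9.29 in Rarb/Drd1 and 11.7 in Rarb/Drd2 nuclei.

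Other genes of the pathway were compared in the same way. Of 6 RGS partners and G alpha regulators compared, 0 were higher and 1 lower (Gpsm2, ratio 0.358, 0.111 to 0.897) in US+ Rarb/Drd1 nuclei, and 0 of 6 were past the fold in Rarb/Drd2 nuclei. The highest ratios were those of Gpr158, a receptor that holds Rgs7 at the membrane, 1.28 (1.22 to 1.35) in Rarb/Drd1 nuclei, and of Rgs7bp, which anchors Rgs7 and Rgs9 complexes, 1.32 (1.23 to 1.43) in Rarb/Drd2 nuclei. Of 6 adenylyl cyclases, 1 was higher and 0 lower in Rarb/Drd1 nuclei (Adcy1, 1.62), and 2 were higher (Adcy1, 1.74, and Adcy2, 1.58) and 1 lower in Rarb/Drd2 nuclei. That 1 was Adcy5, at 232.7 CPM in US+ against 383.3 CPM in US- Rarb/Drd2 nuclei (ratio 0.607, 0.546 to 0.674) and at 285.1 and 368.5 CPM in Rarb/Drd1 nuclei (ratio 0.774, 0.699 to 0.856).

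Of 5 phospholipase C beta and GIRK genes compared, 1 was higher in Rarb/Drd1 nuclei (Plcb4, ratio 1.54, 1.23 to 1.91) and 2 in Rarb/Drd2 nuclei (Plcb4, 2.19, 1.83 to 2.62, and Kcnj6, a GIRK channel gene, 2.08, 1.58 to 2.72). Of 7 receptor kinases and arrestins, 2 were higher (Grk5, 1.67, and Grk3, 1.63) and 1 lower (Grk2, 0.594, on 9 and 51 UMIs) in Rarb/Drd1 nuclei, and 1 was higher in Rarb/Drd2 nuclei (Grk5, 2.16, 1.76 to 2.64). Grk5, a kinase that phosphorylates active receptors, stood at 96.1 CPM in US+ against 57.4 CPM in US- Rarb/Drd1 nuclei and at 86.4 and 40.0 CPM in Rarb/Drd2 nuclei. In other GABAergic nuclei 1 gene of these 4 lists passed (Gpr179, 1.80) and in Slc17a6 nuclei 0, read against the shares of all genes given above.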

How the data were processed

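The deposited matrices hold counts: UMIs per gene and nucleus. The authors' notes name Cell Ranger 6.1.1 and the mm10 build. Whether intronic reads were counted is not given in the sources used here. The paper's methods describe a normalization to the least saturated sample, a step on the reads. Members and gene lists were chosen with earlier results of these data known. UMIs were summed per class and library, in 1655397 to 39641758 UMIs per US+ and 5573528 to 40078319 per US- class, and scaled to CPM (Python 3.11.15, scipy 1.17.1). Ratios carry exact conditional Poisson intervals and shares exact binomial ones, and computations were tested on simulated data. Shares at 2000 UMIs are the mean chance of at least 1 UMI after thinning. Doublets were limited by the upper bound of 7500 genes, and no caller was run. Named members are those past 1.5-fold the same way in at least 2 classes, past the fold between classes, or with the highest or lowest ratio of their family in a class. Genes outside this rule are named to complete a count or after their values were seen. Of the pathway lists, genes past the fold or with extreme ratios are named. Alternatives were TMM (edgeR 4.0.16) and median-of-ratios scaling, equal weight of nuclei, pseudocounts of 0.1 and 5 CPM, minimums of 1 and 200 UMIs, other depth and gene limits, looser and stricter gates, nuclei with glial UMIs left out, a standardized mix of strata, and 2 settings chosen after the data were seen. Gnal, Gnb2 and Rgs10 overlap another counted gene on the same strand. Promoter windows come from RefSeq on GRCm38.p6.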

Additional observations from a re-analysis of the deposited data

Results flagged for a closer look

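Rgs6 and Rgs10 moved in opposite directions in the Rarb classes. The US+ over US- ratio of Rgs6 was 1.58 in Rarb/Drd2 and 0.658 in Rarb/Drd1 nuclei, and that of Rgs10 was 1.56 and 0.512. With 1 library per group the difference between the classes was not tested, and the Rarb/Drd2 ratios were 0.789 and 0.997 when nuclei of more than 5000 genes were left out.

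Members were also past 1.5-fold in nuclei that belong to none of the 4 classes. In the 1167 US+ and 2543 US- nuclei with at least 2 Rarb UMIs that met no dopamine receptor gate, 6 of 40 members were higher in US+ and 2 lower, against 5.35% and 4.66% of all genes. The ratios were 6.26 for Rgs2, 1.69 for Rgs3, 2.76 for Rgs16, 1.76 for Gnas, 1.82 for Gng2 and 1.53 for Gng4, and 0.656 for Gnb4 and 0.456 for Gng7. In the 3239 US+ and 2454 US- unassigned nuclei with less Rarb, 3 of 41 were higher and 1 lower, against 3.08% and 1.39% of all genes. The ratios were 1.83 for Rgs2, 1.62 for Rgs22, 15.2 (4.96 to 75.8) for Rgs5, a gene known from pericytes, on 60 UMIs in US+ and 3 in US-, and 0.621 for Rgs19. In the 1987 US+ and 623 US- nuclei under 2000 UMIs, 6 of 29 were higher and 4 lower, against 8.05% and 8.81% of all genes. The ratios were 3.03 for Rgs2, 1.68 for Rgs10, 1.55 for Gna12 (0.843 to 3.08), 1.84 for Gna13, 1.58 for Gnas and 1.60 for Gng4 (0.848 to 3.27), and 0.656 for Rgs6, 0.621 for Rgs9, 0.661 for Gnal and 0.571 for Gng7. These nuclei were not split by cell type.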

How the results depend on the processing

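No paired analysis was possible because each group is 1 library, and no replicate could be left out. Of 576 ratios of named members recomputed, 513 stayed within the counting interval of the reported value, 57 moved outside it and 6 turned. The 6 were Rgs2 in Rarb/Drd1 nuclei without nuclei of 3 or more activity UMIs (0.666), Rgs6 in Rarb/Drd2 nuclei at no more than 5000 genes (0.789) and under stricter gates (0.865), Rgs10 there at no more than 5000 genes (0.997), and Gnas (0.986) and Gng7 (1.01) in Rarb/Drd1 nuclei without nuclei of 3 or more glial or vascular UMIs. A member with under 50 UMIs in a setting got no value there.

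Counts of members past the fold changed by more than 1.5 times as follows, each with the number compared and the share of all genes past the fold, and no cause was tested. For US+ over US-, the 11 in Rarb/Drd1 nuclei (33 compared, 17.1%) became 6 with 5 CPM added (33, 10.0%), 18 at a minimum of 1 UMI (46, 34.1%), 5 at 200 UMIs (21, 10.6%), 5 at no more than 5000 genes (30, 21.6%), 5 under looser (36, 13.3%) and 6 under stricter gates (17, 26.2%), and 6 without nuclei of glial or vascular UMIs (17, 23.8%). The 10 in Rarb/Drd2 nuclei (32, 15.6%) became 20 at a minimum of 1 UMI (46, 33.1%), 5 under stricter gates (26, 19.5%) and 3 without nuclei of glial or vascular UMIs (15, 23.0%). The 2 in other GABAergic nuclei (41, 4.28%) became 0 with 5 CPM added (41, 0.679%) and 1 without nuclei of activity UMIs (40, 4.39%). The 0 in Slc17a6 nuclei (36, 4.09%) became 6 at a minimum of 1 UMI (48, 13.5%), 1 at 5000 UMIs per nucleus (35, 4.36%) and 2 under stricter gates (30, 6.59%). Over other GABAergic nuclei, the 10 in Rarb/Drd1 (41, 10.8%) became 6 with 5 CPM added (41, 4.12%) and 6 under looser gates (41, 6.90%). The 10 in Rarb/Drd2 (41, 10.9%) became 5 under looser gates (42, 4.25%) and 5 without nuclei of activity UMIs (40, 9.72%). The 0 in Slc17a6 (41, 1.63%) became 1 with 0.1 CPM added (41, 2.33%), under looser gates (42, 1.66%), under stricter gates (40, 2.05%) and without nuclei of activity UMIs (41, 1.69%). The 4 in Rarb/Drd1 over Rarb/Drd2 (34, 3.20%) became 7 at a minimum of 1 UMI (46, 5.29%), 2 under looser gates (39, 2.71%) and 2 without nuclei of glial or vascular UMIs (20, 4.32%). The US+ Rarb classes held the fewest UMIs, and members were compared between libraries there on as few as 7 UMIs in US+ (Rgs10 in Rarb/Drd1 nuclei). Between classes, Rgs3 was counted as lower on 2 UMIs in US+ Rarb/Drd1 nuclei and Gna14 on 0 in US+ Rarb/Drd2 nuclei.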
